A study of Mus musculus with 18 samples.

Results

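The loci described here are those of 10 mouse genes of interleukin-2 (IL-2) and STAT5 signalling: the cytokine Il2, the receptor chains Il2ra, Il2rb, Il2rg and Il15ra, the transcription factors Stat5a and Stat5b, and the feedback inhibitors Cish, Socs1 and Socs3. Their members are the accessible regions that name 1 of these genes as overlapped or as lying within 5000 bp of an exon, which were 44 of 65983 regions. All 10 genes were named by at least 2 regions, out of 26755 genes named in the table. Naive mouse CD4 T cells were stimulated with beads that carry anti-CD3 and anti-CD28 and then assayed by ATAC-seq, which maps DNA that a transposase can reach. The 18 samples formed 6 groups of 3: Id3-KO and WT Th1 cells at 24 h, Id3-KO and WT Tcmp cells at 72 h, and Id3-KO and WT Teff cells at 72 h. All groups, the WT controls included, were cultured with IL-2 at 10 ng/ml, IL-12 at 10 ng/ml and antibody against IL-4 at 10 µg/ml, so that the cytokine of this pathway was supplied to every sample. Tcmp and Teff are the labels' own terms. The sources used here do not say how and in which cells Id3 was removed, or whether replicates were different animals or cultures.

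IL-2 is made by activated T cells and acts on them through a receptor of 3 kinds of chain. Il2ra encodes the alpha chain (CD25), which raises the affinity for IL-2, Il2rb the beta chain, shared with IL-15, and Il2rg the gamma chain, shared with further cytokines, while Il15ra encodes the alpha chain for IL-15. Receptor signalling leads to phosphorylation of STAT5A and STAT5B, which bind DNA at sites of the form TTCNNNGAA, and among the genes they switch on are Cish and other inhibitors that dampen the signal. Id3, the gene removed in the knockout, encodes an inhibitor of E proteins, transcription factors that bind E-box sites such as CAGCTG and CAGGTG.

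The authors' table holds 6 contrasts and no value for any sample, so neither a level per group nor a replicate error can be given for any of these loci. The best p-value among the windows of a region (the stretches tested) was taken as the region's combined p-value divided by its number of windows. In each of the 6 contrasts it fell 0 times from the top of the table to its end. This covered the 25375 to 53444 regions whose combined p-value was below 1. The window listed as representative was the first of its region in 65983 of 65983 regions. The listed p-values, and the fold changes that stand with the same windows, were therefore not read as those of the regions beside them. The following describes where accessible regions were listed, their extent and their annotation, which were identical in all 6 contrasts; it contains no test of a change between groups. The list covers all samples together, so a region in it cannot be assigned to a genotype, a cell label or a time. As a check of the tissue, 8 of 9 T cell genes (among them Cd3d, Cd3e, Cd4, Lck and Bcl11b) were named by a region and Trac was not. So were 5 of 6 B cell, 3 of 6 myeloid and 5 of 6 erythroid genes, with medians of 5, 3.5, 0.5 and 1.5 regions per gene in the same order. Csf1r, Cd14, Lyz2, Ms4a1 and Hbb-bs were named by none. Other B cell and myeloid genes had several regions, with 10 at Ebf1, 6 at Itgam, 5 at Spi1 and 4 each at Pax5 and Cd79a. Among the T cell genes with a region, counts ran from 3 at Cd3d, Cd3e and Cd5 to 19 at Bcl11b. Being named by a region thus did not separate T cell genes from B cell and erythroid genes, and counts of single genes overlapped between lineages. The share of all annotated genes named by a region was not determined, so these shares have no reference.

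The sequences in which the binding sites of this pathway were found are shown first. They are RefSeq promoters of build GRCm38.p6, each of 250 bases before and 50 after a start site, read 5′ to 3′ on the strand of the gene. The regions are on GRCm39, and positions were not carried from one build to the other, so the sequences show the promoters of the genes and not the regions themselves. Capitals mark TTCNNNGAA, the STAT site, at Cish (chr9:107296409-107296708, plus strand) and Socs3 (chr11:117969317-117969616, minus strand).
Cish: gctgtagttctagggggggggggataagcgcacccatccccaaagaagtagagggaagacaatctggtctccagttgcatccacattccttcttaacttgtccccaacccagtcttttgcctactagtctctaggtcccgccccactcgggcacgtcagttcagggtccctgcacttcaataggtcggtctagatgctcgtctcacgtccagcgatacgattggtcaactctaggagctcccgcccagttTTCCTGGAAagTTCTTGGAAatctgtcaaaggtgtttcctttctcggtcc
Socs3: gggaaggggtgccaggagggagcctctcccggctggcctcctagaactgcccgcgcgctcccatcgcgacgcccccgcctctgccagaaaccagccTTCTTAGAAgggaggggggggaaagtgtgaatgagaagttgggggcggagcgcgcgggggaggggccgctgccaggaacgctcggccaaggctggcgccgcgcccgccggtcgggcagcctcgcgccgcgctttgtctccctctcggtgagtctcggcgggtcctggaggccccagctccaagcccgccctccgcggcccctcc

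The Cish promoter held 2 STAT sites, which began at bases 1 and 12 counted from the start site. The Socs3 promoter held 1, at base -154. Among 32851 RefSeq promoters of the same length, 8.3% held at least 1 such site and 0.457% held 2 or more. Of the 12 promoters listed for 9 of the 10 genes (Il2rb had none in the table), these 2 held the motif. Both encode inhibitors that bind receptor complexes or their kinases through an SH2 domain. With the stricter letters TTCCNGGAA, found in 1.15% of all promoters, Cish was the only one of the 12.

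The promoters of Stat5a and Stat5b, neighbouring genes that encode closely related proteins, shared a stretch around an E-box. Its 2 versions are shown with CAGCTG, a site bound by E proteins, in capitals, at Stat5a (chr11:100860381-100860482, plus strand) and Stat5b (chr11:100822563-100822664, minus strand).
Stat5a: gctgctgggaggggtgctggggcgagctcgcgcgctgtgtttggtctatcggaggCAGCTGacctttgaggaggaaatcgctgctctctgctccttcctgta
Stat5b: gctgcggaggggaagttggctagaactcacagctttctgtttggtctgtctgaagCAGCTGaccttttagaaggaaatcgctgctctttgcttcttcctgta

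The local alignment of these stretches had 104 columns, of which 83 (79.8%) were identical, 17 were mismatches and 4 were gaps. Its score of 98 was the highest among all pairs of promoters of different genes in the list, and the next, between Stat5b and Socs3, scored 32 over 33 columns. The E-box began at base -48 in Stat5a and at base -39 in Stat5b. CAGCTG occurred in 16.3% of all promoters and in 3 of the 12, the third being at base -38 of an Il15ra promoter. CAGGTG occurred in 20.2% of all promoters and in 2 of the 12, an upstream promoter of Stat5a and a promoter of Il15ra. In that Stat5a promoter it overlapped the T-box letters AGGTGTGA, which 1.28% of all promoters held.

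Sites of activation-induced factors were looked for in the same promoters. TGGAAA, the core of NFAT sites, was present in 5 of the 12 (Il2, Il2rg, Il15ra, Stat5b and Cish) and in 21.4% of all promoters. At Cish its 2 matches overlapped the STAT sites. TGACTCA, the AP-1 site, which reads TGAGTCA on the other strand, occurred in 1 promoter, of Il15ra, and in 5.2% of all. ACCACA, the RUNX core, was found at Il2rg and Stat5a and in 16.8% of all. The letters GAAANNGAA, of the kind bound by interferon regulatory factors, were added after the sequences had been seen. They occurred in 3 of the 12 promoters and in 8.56% of all, with 2 overlapping matches at Socs1, shown here in capitals (chr16:10785487-10785786, minus strand), and in both promoters of Il15ra.
Socs1: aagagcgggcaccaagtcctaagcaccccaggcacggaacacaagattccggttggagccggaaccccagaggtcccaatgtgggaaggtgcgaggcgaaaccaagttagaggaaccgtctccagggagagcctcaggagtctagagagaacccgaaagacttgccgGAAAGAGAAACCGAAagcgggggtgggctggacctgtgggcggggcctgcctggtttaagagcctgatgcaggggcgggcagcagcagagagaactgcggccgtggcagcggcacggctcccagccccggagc

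All motifs were read on both strands, and a match describes letters only, not binding. No test was made of the shares among the 12 promoters.

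**Figure D1:**
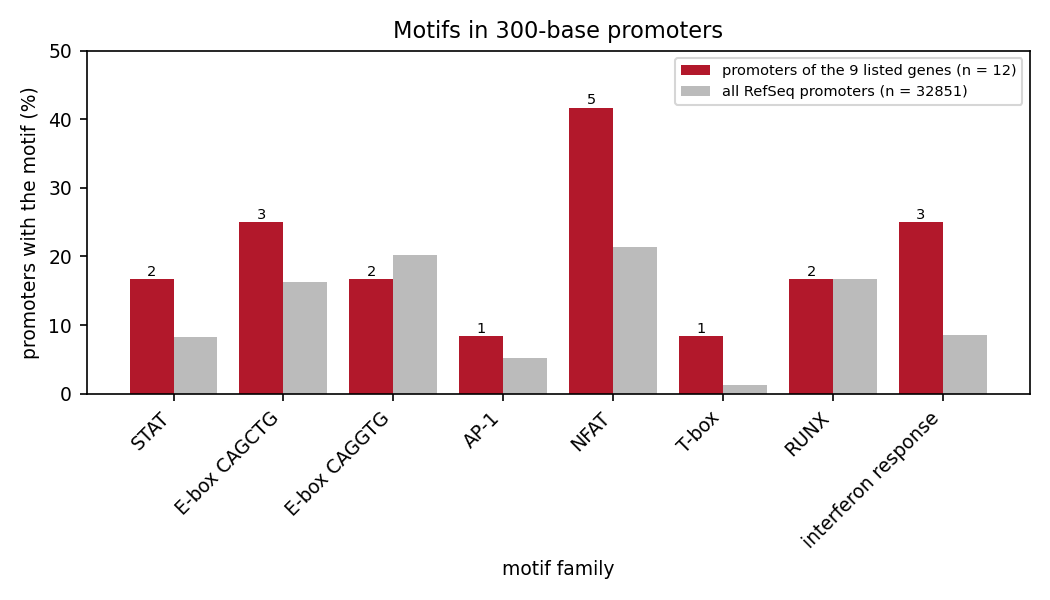
Share of 300-base RefSeq promoters (y axis, %) that held each motif (x axis), for the 12 promoters of 9 of the genes (red, with the number of promoters above the bar) and for all 32851 promoters (grey). The STAT motif was in 2 of 12 promoters and the NFAT core in 5 of 12.

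The number of accessible regions differed widely between the 10 genes. Stat5b had 12 regions and Il2ra 9, while Il2, Il2rg, Il15ra and Stat5a had 2 each. Cish had 5, Socs3 had 4, and Il2rb and Socs1 had 3 each. The median was 3, against 2 for all named genes (quartiles 1 and 3). Of all named genes, 1.92% had more regions than Stat5b and 3.4% more than Il2ra. For the genes with 2 regions, 37.4% of all genes had fewer and 37.5% had more. Longer genes can hold more regions, and the part of gene length in these counts was not tested.

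By annotation class, 17 of the 44 regions (38.6%) lay in introns only, 17 (38.6%) were marked as promoter, alone or with an exon or intron, 2 (4.55%) as exon only, and 8 (18.2%) as flanking. Over all pairs of a region and a gene it names, the shares were 34.2% for introns, 37% for promoters, 7.16% for exons and 21.7% for flanking regions. The mark for a promoter reached 3000 bp upstream: all 6693 regions marked as promoter alone, with a distance listed on the gene's upstream side, were within that reach. Each of the 10 genes had a region marked as both promoter and exon, as had 58.1% of all named genes. Of the 44 regions, 9 also named a gene outside the 10. The regions of the 10 genes had a median of 6.5 windows and a width of 575 bp, against 6 windows and 550 bp for all regions. The means were in the opposite order, 5.91 windows and 545.5 bp against 6.21 windows and 562.9 bp, so the sign of the difference depends on the summary. Those marked as promoter and exon had a median of 6.5 windows, and 8 over all genes.

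**Figure D2:**
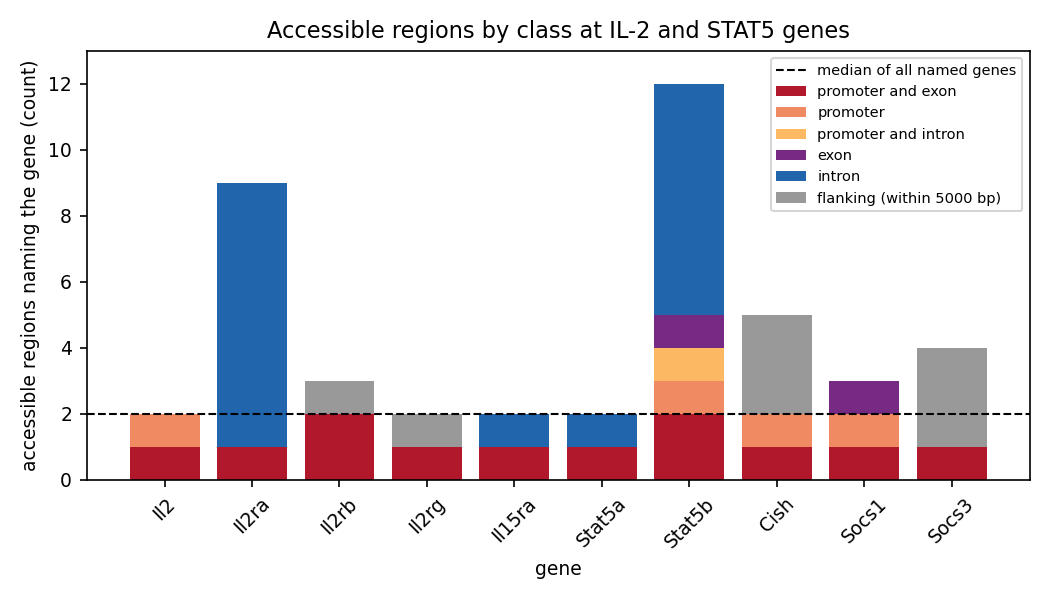
Number of accessible regions that name each gene (y axis), stacked by annotation class, for the 10 genes (x axis), with the median of all named genes, 2, as a dashed line. Stat5b (12) and Il2ra (9) are the highest, mostly with intron regions, and the flanking regions are at Cish, Socs3, Il2rb and Il2rg.

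At Il2, the cytokine gene, the promoter was marked by 2 regions (chromosome 3, minus strand, GRCm39 here and for all regions). The region over the start of the gene (37179851 to 37180200) held 2 windows, was 350 bp wide and also named the gene Adad1. It was small for its class, since 3.74% of all regions marked as promoter and exon held this number or fewer. The second region (37182351 to 37182950) held 7 windows and lay 2243 bp upstream of the nearest exon. No region was listed within the body of Il2 beyond the first of these.

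Among the receptor chains, Il2ra stood out by its introns. On chromosome 2 its region at the start (11647201 to 11647900, plus strand) had 9 windows, and 8 further regions lay in introns over the following 29575 bp, measured between centres. The first pair of these lay between the exon that ended at 11647875 and the next, which started at 11652783. They were 2126 and 4126 bp past the former. Another pair lay 2522 and 4522 bp past an exon that ended at 11653579. The region at 11659751 to 11660650, with no exon of Il2ra listed within 5000 bp, was the widest of all 44, with 13 windows and 900 bp. Of all intron regions, 0.111% had 13 windows or more. The regions at 11662301 to 11662950 and 11668801 to 11669150, with 8 and 2 windows, likewise had no exon of it listed within 5000 bp. The last, at 11676851 to 11677400, lay 1706 bp before the next exon.

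At least 8 intron regions were listed for 2.62% of all named genes. Il2ra had 88.9% of its regions in introns, a share that was lower in 93.7% of the 3788 genes with at least 5 regions, whose median was 57.1%. In the 1143 genes with at least 9 regions, as many as Il2ra has, the median share was 71.4%. At Stat5b the share was 58.3%, near the median of 57.1%, and 52.6% of the 3788 genes had a lower one. The regions of Il2ra were also close together, at 2.98 per 10 kb from the first to the last. The median was 1.27 in the 3788 genes with at least 5 regions. Of these 3788 genes, 91.4% were less dense than Il2ra, 95.5% less dense than Cish (3.53) and 85.3% less dense than Stat5b (2.49). The median gap between neighbouring regions of Il2ra was 1875 bp, against 5050 bp for all genes.

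The other receptor chains had few regions. Il2rb (chromosome 15, minus strand) had 2 regions marked as promoter and exon, at 78377651 to 78378250 and 78379051 to 78379700, with 7 and 8 windows and 800 bp between them. The remaining region lay 3156 bp past the last exon. Il2rg (chromosome X, minus strand) had 1 region at its start, 100311551 to 100312200, with 8 windows, which also named Gm614 and ENSMUSG00000092463. The other, at 100304101 to 100304700, lay 3284 bp past its last exon and overlapped an exon of Foxo4, a forkhead transcription factor gene. Il15ra (chromosome 2, plus strand) had a region of 7 windows at its start, 11710251 to 11710850, and an intron region of 4 windows, 4096 bp past the preceding exon. Il2ra and Il15ra follow each other on the chromosome, and the 32850 bp between their outermost regions held 0 regions.

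**Figure D3:**
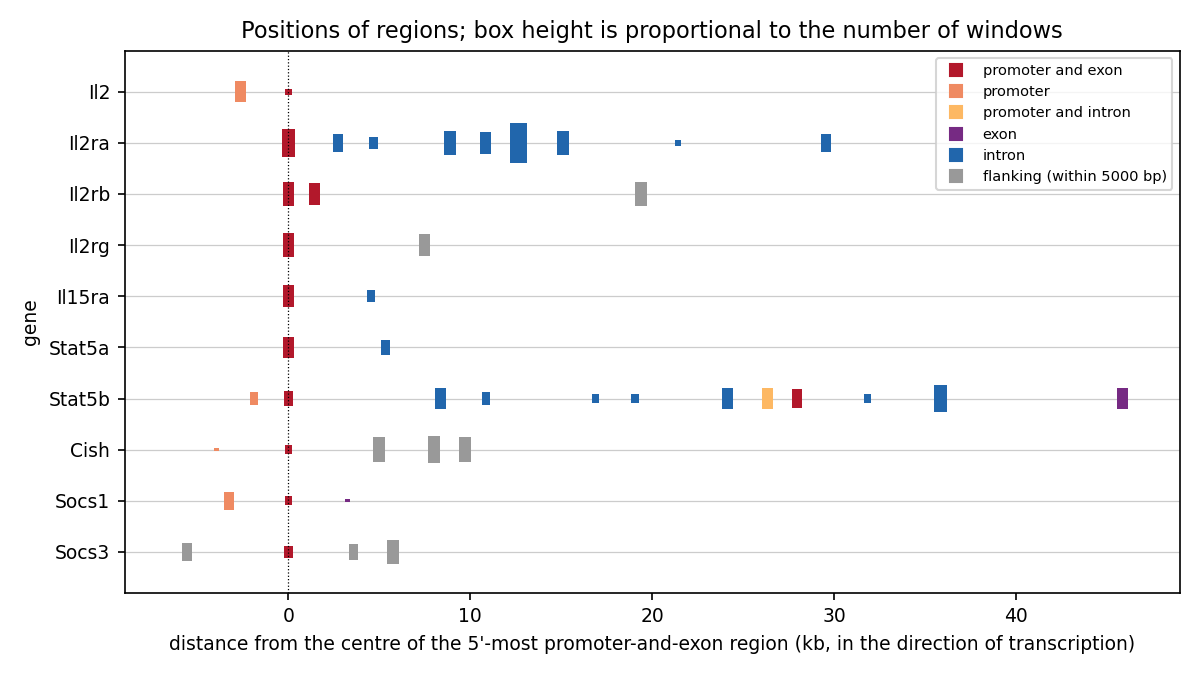
Position of each region on an axis in kb from the centre of the gene's most upstream region marked as promoter and exon, in the direction of transcription, with 1 line per gene (y axis), colour for the class and box height proportional to the number of windows. Il2ra shows a series of intron regions that ends at 29575 bp. At Stat5b, intron regions reach 35850 bp with promoter regions among them, and an exon region lies at 45850 bp. Cish and Socs3 show flanking regions beyond the gene.

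The 2 STAT5 genes lie next to each other on chromosome 11 and differed in their number of regions. Stat5b (minus strand) had 12: 7 in introns, 2 marked as promoter and exon, 1 as promoter and intron, 1 as promoter alone and 1 as exon. Its promoter regions formed 2 groups. The upstream group was the region at 100741101 to 100741600 (5 windows) with another at 100743001 to 100743450 (4 windows), 1451 bp upstream of an exon. The downstream group was the region at 100713101 to 100713650 (6 windows) with another at 100714701 to 100715300 (7 windows), 1347 bp upstream of an exon. The upstream ends of these exons, as the listed distances give them, were 28196 bp apart. RefSeq also lists 2 Stat5b promoters, 28011 bp apart in its own build, and the downstream promoter is the one with the E-box stretch shown above. At least 4 promoter regions were listed for 1.77% of all named genes.

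The largest intron region of Stat5b, at 100705151 to 100705850, had 9 windows, a number reached by 6.48% of intron regions. The remaining intron regions had 3 to 7 windows. Stat5a (plus strand) had a region of 7 windows marked as promoter and exon, 100750951 to 100751550, which began 390 bp past an upstream exon. It also had an intron region of 5 windows that began 20 bp past an exon. The 7500 bp between the outermost regions of Stat5b and Stat5a held 0 regions. Stat3, whose protein is activated by other cytokine receptors, follows on the other side of Stat5a and was named by 9 regions.

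Each of the feedback inhibitors had at most 4 windows in its region marked as promoter and exon. Cish (chromosome 9, plus strand) encodes an SH2 protein induced by STAT5. It had a promoter region of 1 window at 107171401 to 107171700 and a region of 3 windows marked as promoter and exon at 107175301 to 107175700. The latter began 1068 bp past an upstream exon of Cish. The 3 flanking regions lay 168, 3168 and 4918 bp past the last exon and had 8, 9 and 8 windows. The promoter regions of Cish were also marked for an unnamed gene on the opposite strand (ENSMUSG00000091366). The region of 1 window also named Mapkapk3. ENSMUSG00000090570 was also named by the region of 3 windows and by the flanking regions 168 and 3168 bp past the last exon.

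Socs1 encodes a JAK kinase inhibitor and is on chromosome 16 (minus strand). It had an exon region of 1 window (10599851 to 10600150), a region of 3 windows at the start (10603051 to 10603450) and a promoter region of 6 windows (10606251 to 10606800), 2851 bp upstream and shared with the promoter of Tnp2, a sperm chromatin protein gene.

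Socs3 encodes an inhibitor of receptors of the IL-6 family and is on chromosome 11 (minus strand). Its region marked as promoter and exon (117859951 to 117860400) had 4 windows, with a further Socs3 exon listed 212 bp upstream. Of its 3 flanking regions, 1 lay 4628 bp upstream (6 windows) and the others 55 and 2155 bp past the last exon (5 and 8 windows). Among regions marked as promoter and exon, 6.47% had 3 windows or fewer, as at Cish and Socs1, and 10.3% had 4 or fewer, as at Socs3. At least 3 flanking regions, as at Cish and Socs3, were listed for 1.44% of all named genes. Of the 8 flanking regions of the 10 genes, 7 lay on the downstream side, as did 71.8% of all flanking regions. Regions marked as promoter, a mark that reached 3000 bp upstream, are not counted as flanking, which lowers the upstream share by definition.

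Around several of the genes the chromatin was listed as accessible well beyond the reach of 5000 bp. Within 50 kb of the outermost regions, a range added after the data had been seen, 22 regions were listed at Il2ra, 21 each at Cish, Socs1 and Socs3, 20 at Stat5b, 18 at Stat5a and 16 at Il2rb, against a median of 8 for all genes. Il2 had 8, and Il2rg and Il15ra had 6 each. The totals include regions that name the gene, and the range is longer where those lie farther apart. Regions that did not name the gene were 18 at Socs1, 17 at Socs3, 16 each at Cish and Stat5a, and 13 each at Il2ra and Il2rb. Stat5b had 8 such regions, Il2 had 6, and Il2rg and Il15ra had 4 each, against a median of 5 for all genes. At Stat5a, 11 of the 16 named Stat5b and 5 named Stat3. Neighbouring genes were also named by many of the regions within 50 kb of other members. Mapkapk3 was named by 8 at Cish, Pgs1 by 8 at Socs3 and Clec16a by 6 at Socs1. The part of neighbouring genes in these counts was not tested. At Il2, 6 of the 8 named no gene, and all 6 lay upstream, 26625 to 48925 bp from the region at its start and with at most 7 windows. At Socs3, 9 named no gene and all lay downstream, and at Socs1 all 6 that named no gene lay downstream. At Il2ra 4 named no gene and lay 5400 to 25700 bp upstream of the start. Which gene such regions act on cannot be told from their position.

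**Figure D4:**
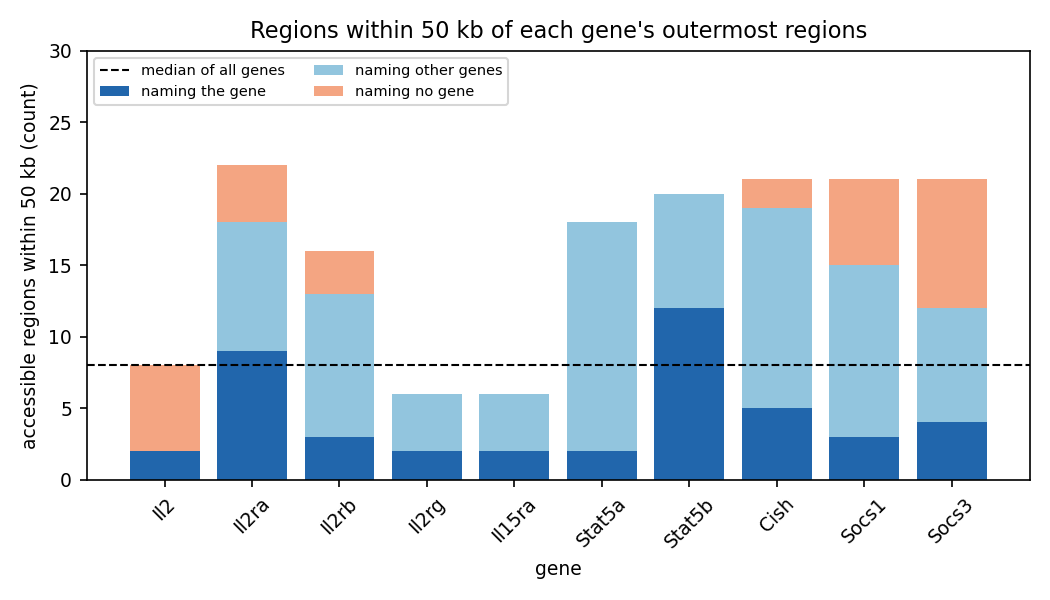
Number of regions within 50 kb of each gene's outermost regions (y axis) for the 10 genes (x axis), split into those that name the gene, other genes or no gene, with the median of all genes, 8, as a dashed line. Il2 has 6 regions that name no gene, and Il2rg and Il15ra are below the median.

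Other genes of the pathway were listed by their roles. Of 53, 52 were named by a region, a share that was not determined for all annotated genes. Of these 52, 49 had a promoter region, as had 75.9% of all named genes. The median of the 53 was 4 regions, against 3 for the 10 genes and 2 for all named genes. Among the kinases, Jak1 had 22 regions, 17 of them in introns, Jak2 had 6, and Jak3, the partner of the gamma chain, had 3. The related receptor chains Il4ra, Il7r, Il9r and Il21r had 4 to 7. Of the related cytokines, Il4, Il15 and Il21 had 3 each and Il7 had 1, and Il9 had 2 flanking regions and no promoter region. The STAT genes ranged from 1 region at Stat2 to 17 at Stat4, which mediates the response to IL-12. Among inhibitors, Ptpn2, a phosphatase that acts on JAK and STAT proteins, had 11, and Socs2, Socs4 and Socs5 had 2 each. The adaptor genes had a median of 10, with Pik3r1 highest at 18. Of the 20 genes listed as targets, Bcl2, a survival factor, had 33 regions and Ccnd3, a D-type cyclin, had 17. Osm, a cytokine gene, was named by none. These counts describe the list of regions and not activity in any group.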

How the data were processed

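ATAC-seq was made from 18 samples in 6 groups of 3. The submitters' processing notes name GRCm39 as the build and, with no version or role, BWA, Picard, Trim Galore and edgeR. The merging of windows into regions is not described there. The deposited table of the authors' comparisons (395898 rows, 65983 regions in each of 6 contrasts) gives, per the file headers, p-values and adjusted p-values, the log2 fold change of a representative window, the number of windows and the width; other deposited columns hold window numbers. It holds no value per sample, so depth is unknown and no SD or interval is given. Divided by the number of windows, the deposited p-values below 1 followed row order, and they were used only for that check. The deposited log2 fold changes, which belong to the same windows, were not used, and their own order was not tested.

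Regions and named genes were parsed with Python 3.11.15 and pandas 2.3.3. A gene counted as named if it stood in the columns of overlapped, left or right genes, and each region was counted once. Distances were read as running to the nearest exon, since the distances of neighbouring regions led to the same points. Promoters are RefSeq's GRCm38.p6. Pairs were aligned locally with Biopython 1.88 (match 2, mismatch -3, gap opening -5, gap extension -2). The parser and the motif search were tested on simulated data. No reference genome was used, so motifs were searched in promoters in place of regions. The genes named are the 10 members, the genes of a pathway list by role, genes that share a member's region, and cell type markers for the check of the tissue. Members and lists were chosen with earlier results of these data known.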

Additional observations from a re-analysis of the deposited data

How the results depend on the processing

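The count of 44 regions was 36 with overlapping regions only, 40 with at least 3 windows, 30 with a width of at least 500 bp, and 44 in each other contrast. It rose to 137 regions within 50 kb. Of the 17 promoter regions, 13 were marked as promoter of no other gene. The median share of genes with fewer regions than a member was 62.5%, and 56.5% among genes with an overlapping region. The median of 6.5 windows per region compares with a mean of 5.91, which is below the 6.21 of all regions. With longer motif letters, the promoters with a match went from 2 to 1 for STAT and from 5 to 1 for NFAT, to 0 for AP-1, T-box and RUNX, and were equal for both E-boxes.

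No paired analysis was possible because only comparisons were at hand, without sample values. Leaving out single replicates was not run on that account. Regions per 10 kb of gene, regions within 50 kb of an annotated gene, and motifs in regions or in their central 300 bp were not run, since they need a genome or annotation of GRCm39. What depth limits could not be judged.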
